A study of Mus musculus with 12 samples.

Results

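The lysosome and autophagy genes described here are 37 genes of the acidic, degradative compartment of the cell and of the pathway that delivers cytoplasm to it. They were chosen by name, as a fixed list, with earlier results of these data known. Their RefSeq transcript counts were added up per gene, which gave 37 of the 38911 genes of the series. All 37 passed the filter on low counts, which left 16966 genes for testing. By role they are 5 proteins of the lysosomal membrane and of lipid export (Lamp1, Lamp2, Npc1, Npc2, Mcoln1), 11 hydrolases and their cofactors, 4 genes of the proton pump, 6 genes of the cargo receptor p62 and the Atg8 family, 8 genes that start and extend the autophagosome, and the 3 transcription factors Tfeb, Tfe3 and Mitf.

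Lysosomes are acidified by the V-ATPase, a rotary proton pump, and the low pH lets their hydrolases break down proteins, glycolipids and glycans. In autophagy, the Ulk1 kinase complex and the Becn1 lipid kinase complex start a membrane cup, small ubiquitin-like proteins of the Atg8 family are joined to its lipid, and the closed vesicle fuses with the lysosome. Tfeb, Tfe3 and Mitf bind E-box sequences in the promoters of many of these genes, and the kinase mTORC1, which sits on the lysosome, keeps them out of the nucleus when nutrients are plentiful.

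The data are polyA RNA-seq of mouse gastruloids, aggregates of E14TG2a embryonic stem (ES) cells that form the body axes in culture, collected on day 4. All were started in N2B27 medium from 200 ES cells grown in 2i and LIF, and all had been given CHIR99021, a Wnt agonist, on day 2. From day 3 to day 4 they were held in 0× glucose (0 mM), 1× glucose (21.25 mM) or 3× glucose (63.75 mM), or in 1× glucose with 5 mM 2-DG, a glucose analog that enters the first step of glycolysis but cannot be used further. The study states that 2-DG also competes with mannose in protein glycosylation and lists induction of autophagy among the reported effects of 2-DG. Each of the 4 groups has 3 libraries, made from ES cells of passages 13, 15 and 16, and each library pools many gastruloids of 1 cell line. Values are given below as CPM, counts scaled to a common library size, in the order passage 13, 15, 16.

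The libraries held 31902471 to 45956080 counts, and a gene with no count could have been present at up to 0.0648 to 0.0947 CPM, the worth of 3 counts; this limit covers counting error only. The labels call the cells embryonic stem cells, whereas the summed CPM of 6 pluripotency markers was 28 to 65.9 in all libraries and that of 8 primitive streak and mesoderm markers was 276 to 806. With 2-DG the streak markers summed to 276 to 433 CPM against 551 to 775 in 1× glucose, the pluripotency markers to 53.6 to 65.9 against 35 to 48.5, and the 6 neural markers to 161 to 343 against 140 to 396. The neural sum combines genes with log2 fold changes of both signs. Sox1 (log2 fold change 1.84, adjusted p = 0.0185 by edgeR) and Pax6 (1.29, 0.0464) rose, and 0 of the 6 passed as lower. Nkx1-2, one of the most abundant of them, was at -0.98 and did not pass (0.273 by edgeR). Of the other lists, summed CPM in 1× glucose and with 2-DG was 29.9 to 199 and 28.4 to 81.9 for 5 definitive endoderm markers, 111 to 151 and 41.1 to 100 for 8 visceral endoderm markers (Ttr and Afp had no count in any library), 3.05 to 9.53 and 1.7 to 1.82 for 5 endothelial markers, and 69.8 to 158 and 58.1 to 123 for 6 fibroblast markers. The visceral endoderm sum was nearly all Cited1, at 108 to 147 CPM in 1× glucose and 38.4 to 97.5 with 2-DG. The fibroblast sum was mostly Pdgfra, at 59.9 to 148 and 48.2 to 110 CPM. These 2 sums therefore do not show that such cells were present. Of 7 macrophage markers, Ptprc, Adgre1, Aif1, Tyrobp and Cx3cr1 had no count in any library, Csf1r had at most 5, and the sum, 2.29 to 2.42 CPM in 1× glucose and 3.05 to 3.63 with 2-DG, was nearly all Cd68, which is itself a lysosomal membrane protein. Markers of several cell types thus moved with 2-DG, and their part in the results below was not tested. In bulk RNA, fewer cells of a type and less RNA per cell cannot be told apart.

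Because the MiT/TFE factors bind E-boxes, the promoters of the members were searched for that word before turning to the levels. RefSeq promoter windows of 300 bases (250 before and 50 after each start, GRCm38.p6) were at hand for 32 of the 37 members; none was given for Npc1, Ctsb, Atp6v1h, Map1lc3a and Becn1. The word CACGTG reads the same on both strands and stood in the windows of 11 members (34.4%): Lamp1, Mcoln1, Ctsa, Ctsd, Ctsl, Gla, Glb1, Atp6v0d1, Atp6v1a, Atg5 and Atg7. Among all 27025 gene symbols with a window 8.09% held it, and among the 13049 of them tested here 11.2%. The longer word TCACGTGA, which contains the first and is also its own reverse complement, stood in 6 members (18.8%) against 1.12% of all symbols and 1.95% of those tested. Further genes of these pathways, described below, were searched too. Of those with a window, 1 of 24 hydrolases, 3 of 13 membrane genes and 1 of 10 V-ATPase genes held it. So did 2 of 4 mannose 6-phosphate sorting genes, 2 of 20 autophagy machinery genes and 1 of 13 selective autophagy receptors. Of the mTORC1 and AMPK genes, 0 of 24 and 0 of 7 held it. A match is a description of the sequence and not a bound site.

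The sequence around the longer word is given for the 6 members that held it. With 2-DG, 3 of them rose in the main test. A further 2 passed with the passage as a block but not in the main test, and 1 passed in neither. Of all 37 members 14 rose in the main test, so a rise was not particular to those with the longer word. Each stretch is the word, in capitals, with up to 20 bases on each side, 5′ to 3′ on the strand of the gene, in GRCm38.
Atp6v0d1 (chr8:105566041-105566088, minus strand, word at -4 from the start): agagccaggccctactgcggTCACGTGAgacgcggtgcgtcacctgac
Ctsd (chr7:142387899-142387946, minus strand, word at -99): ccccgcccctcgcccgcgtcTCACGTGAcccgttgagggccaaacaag
Ctsa (chr2:164833740-164833787, plus strand, word at -13 of the second annotated start): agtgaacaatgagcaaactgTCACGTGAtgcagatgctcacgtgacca
Mcoln1 (chr8:3500453-3500500, plus strand, word at -46): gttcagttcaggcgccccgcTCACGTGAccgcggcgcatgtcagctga
Atp6v1a (chr16:44139364-44139411, minus strand, word at -132): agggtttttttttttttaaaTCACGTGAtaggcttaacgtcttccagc
Gla (chrX:134601173-134601220, minus strand, word at -195): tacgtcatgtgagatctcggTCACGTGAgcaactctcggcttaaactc

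Ctsa and Gla held the longer word at 2 places, and 1 of them is marked by capitals in each; the other lies at 5 in Ctsa and at -228 in Gla. Lamp1 did not hold the longer word, but its window held CACGTG at 4 places within the 80 bases before the start.
Lamp1 (chr8:13159081-13159160, plus strand, CACGTG in capitals): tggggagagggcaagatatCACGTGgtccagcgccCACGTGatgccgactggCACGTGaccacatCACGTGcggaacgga

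For contrast, the 150 bases before the start are given for Neu1, the member with the highest log2 fold change with 2-DG, and Gabarapl1, the member with the lowest. Neither window held CACGTG.
Neu1 (chr17:34931103-34931252, plus strand): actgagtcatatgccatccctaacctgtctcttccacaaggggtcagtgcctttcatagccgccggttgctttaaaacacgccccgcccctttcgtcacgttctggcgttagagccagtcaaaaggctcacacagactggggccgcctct
Gabarapl1 (chr6:129533042-129533191, plus strand): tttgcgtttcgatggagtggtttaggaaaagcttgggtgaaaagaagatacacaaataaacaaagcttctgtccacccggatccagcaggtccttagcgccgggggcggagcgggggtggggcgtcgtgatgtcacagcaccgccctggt

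A word of the stress factor ATF4, TGATGNAA on either strand, stood in the windows of Ctsl and Atp6v0d1, 6.25% of the members, against 4.51% of all symbols and 2.87% of those tested. Of 254 tested genes with TCACGTGA, 14.2% were higher and 9.06% were lower with 2-DG than in 1× glucose, and their median log2 fold change was 0.03. For the 1456 tested genes with CACGTG these shares were 11.5% and 8.65%. For the 374 with the ATF4 word they were 13.9% and 7.49%, so a share higher near 14.2% was not particular to the longer E-box word. Of all 16966 genes tested, with or without a window, 9.12% were higher and 8.51% were lower. These shares were not computed for the tested genes with a window alone.

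Levels can be compared between genes only per length of transcript. For 29 members with annotated lengths for at least 80% of their counts, the mean level in 1× glucose, in CPM per kb of transcript, was highest for Lamp1 (155), the heavily glycosylated coat protein of the lysosomal membrane. It was followed by the cysteine protease gene Ctsl (115), the Atg8 gene Gabarap (75.2), the cholesterol carrier gene Npc2 (66.3), the aspartic protease gene Ctsd (58.6) and Psap (54.4), the precursor of the saposins that help to degrade sphingolipids. The lowest were Wipi1 (3.17), Gla (4.53), Atg7 (7.51) and Neu1 (7.83). Among the transcription factors, Tfe3 stood at 14.2 CPM per kb, while the counts of Tfeb and Mitf came largely from transcripts without a matched length. On the scale of CPM, which does not allow for length, Tfe3 was at 43.3 to 51.8, Mitf at 4.93 to 10.4 and Tfeb at 0.289 to 0.884 over the 12 libraries, the last from 11 to 35 counts a library.

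**Figure D1:**
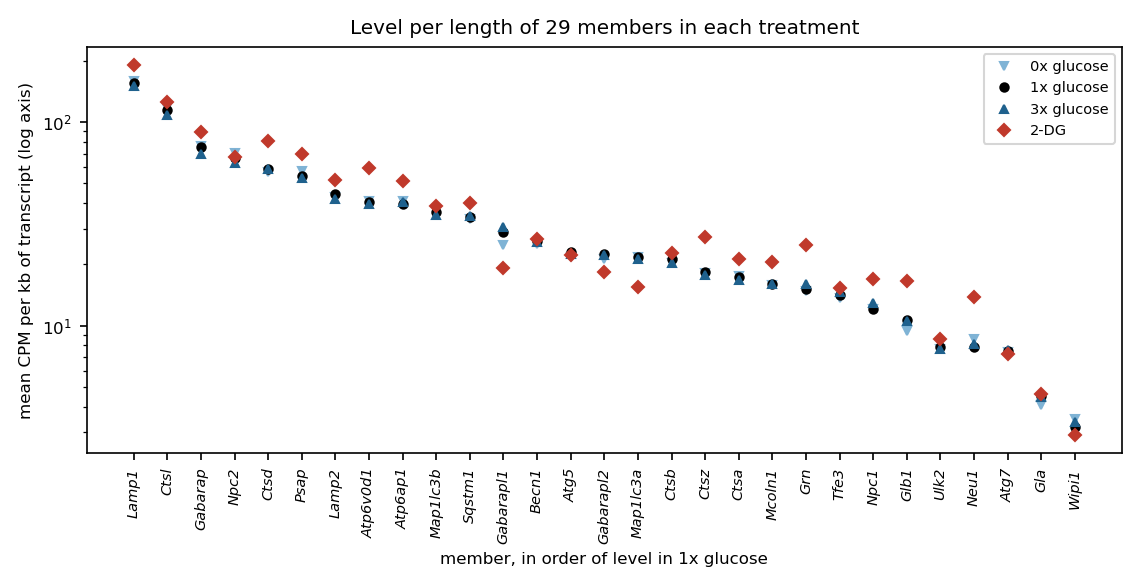
Mean level of 29 members in each treatment (symbols, 3 libraries each), in CPM per kb of transcript on a log axis, ordered by the level in 1× glucose. The levels run from Lamp1 at 155 to Wipi1 at 3.17, the 0× and 3× symbols lie close to the 1× symbol for most genes, and the 2-DG symbols of Neu1, Grn, Glb1 and Atp6v0d1 lie above and those of Gabarapl1 and Map1lc3a below the other 3.

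The first comparison asks what 2-DG did beyond 1× glucose. The members split by role. In the main test (edgeR's quasi-likelihood test on all 12 libraries, with Benjamini-Hochberg adjustment over all 16966 genes and a threshold of 0.05), 11 of the 20 lysosomal genes rose and none fell, while of the 14 genes of autophagy 3 rose and 3 fell. The 3 that fell were all of the Atg8 family, and the 3 transcription factors did not pass. In all, 14 members rose and 3 fell. Over all genes, 9.12% rose and 8.51% fell. The median log2 fold change was 0.36 for the 20 lysosomal genes, -0.04 for the 14 autophagy genes, 0.14 for all 37 and 0.00 for all genes tested. With the passage as a block, a test that compares libraries within each passage, 20 members rose and 4 fell, against 21.1% and 20.2% of all genes. The members added by the block were Npc1, Mcoln1, Ctsl, Psap, Atp6v1a and Map1lc3b, which were higher, and Ulk1, which was lower. By DESeq2 without a block 18 rose and 3 fell, while of all 16966 genes 1822 rose and 1864 fell. The members added by DESeq2 were Npc1, Mcoln1, Psap and Atp6v1a.

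The counts rest on how passages enter the fit. Left without passage 15 and without the block, 0 members passed (edgeR), and over all genes 82 rose and 31 fell. With the block, the libraries left gave 17 members higher and 4 lower, while of 17088 genes tested 1939 rose and 1810 fell. Without passage 16, 5 members rose and 2 fell, while of 16999 genes tested 361 rose and 311 fell. With the block 18 members rose and 4 fell, while over the same genes 2667 rose and 2765 fell. These fits without a passage were added after the data were seen. When only the most abundant transcript of each gene was counted, 9 members passed, while of 16819 genes tested 359 rose and 294 fell. Of the 17 called in the main test, Lamp1, Lamp2, Ctsa, Glb1, Hexa, Atp6ap1, Sqstm1, Gabarapl2 and Atg13 did not pass, each with its direction unchanged, while Wipi2, not called in the main test, was lower (adjusted p = 0.0356 by edgeR). Ctsa and Atg13 also lost their call with no filter on low counts, and Gabarapl2 and Atg13 in a fit of the 2 groups alone.

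**Figure D2:**
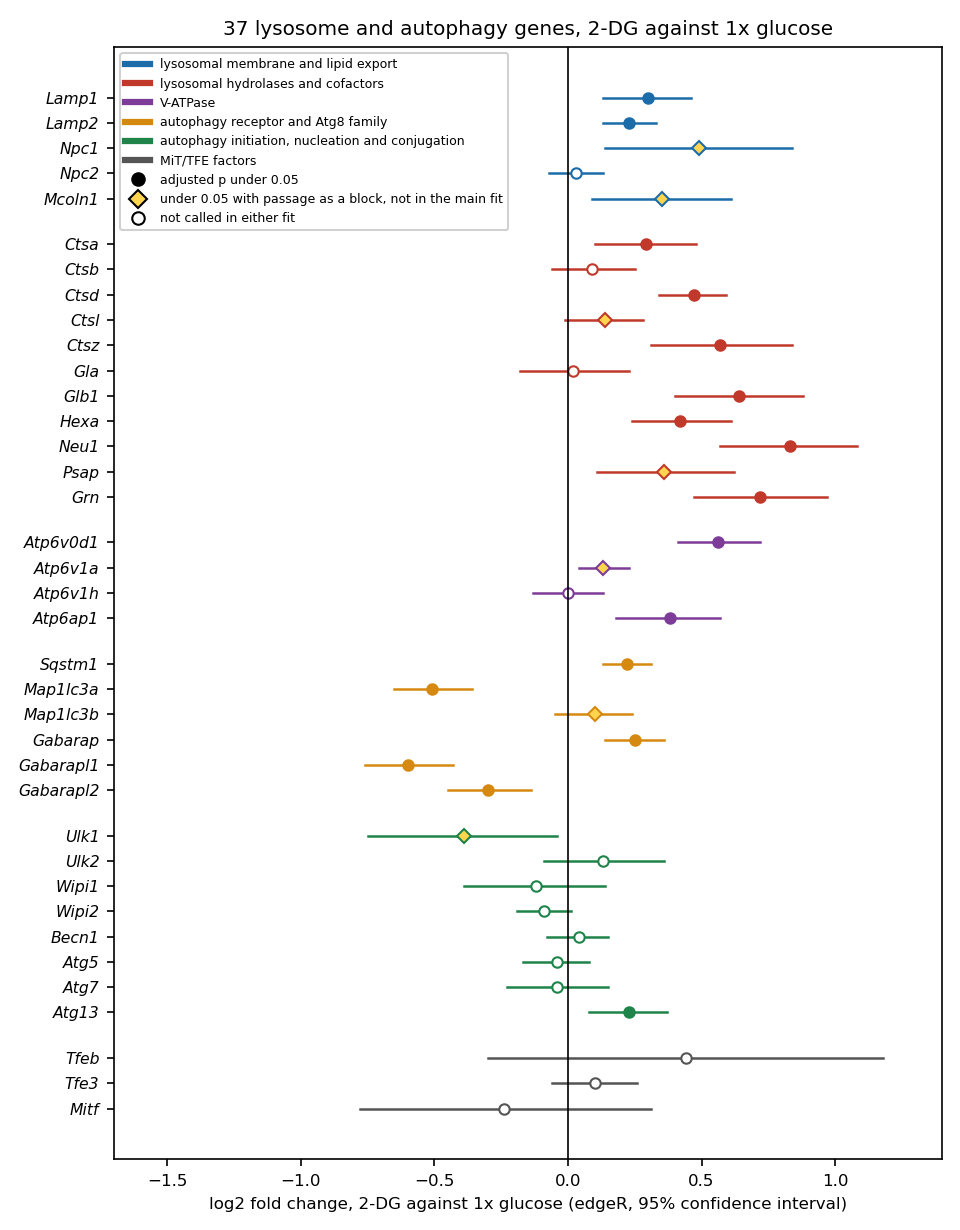
Log2 fold change of the 37 members with 2-DG against 1× glucose (points) with 95% confidence intervals from the edgeR fit without a block, coloured by role. All 20 lysosomal genes lie at or above 0, from Atp6v1h at 0.00 to Neu1 at 0.83, and the autophagy genes lie on both sides, down to Gabarapl1 at -0.60.

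The hydrolases and their cofactors were the group with the highest median, 0.42. Of these 11 genes 7 rose and 0 fell, against 9.12% and 8.51% of all genes. Neu1, the sialidase that removes sialic acid from glycans (chr17:34931253-34937297), was at 20.2, 18.7 and 19.1 CPM in 1× glucose and at 41.1, 32.6 and 29.2 CPM with 2-DG. The lowest 2-DG library lay above the highest 1× library, and the passage 13 library was the highest. The log2 fold change was 0.83 ± 0.12 (SE, n = 3 libraries a group; adjusted p = 0.00134 by edgeR), and the difference within passages ran from 0.61 to 1.02.

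Grn encodes progranulin, a secreted and lysosomal protein that is cut into granulins. It was at 31.2, 33.9 and 41 CPM in 1× glucose and at 59.7, 58 and 57.4 CPM with 2-DG. The 2-DG libraries were nearly equal although the 1× libraries were not. The log2 fold change was 0.72 ± 0.11 (SE; adjusted p = 0.00218 by edgeR).

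Glb1, the lysosomal β-galactosidase, was at 25.8, 23.5 and 26.9 CPM in 1× glucose and at 38.6, 38.1 and 42.1 CPM with 2-DG. The log2 fold change was 0.64 ± 0.11 (SE; adjusted p = 0.00342 by edgeR), and it was nearly the same in each passage, 0.58 to 0.70. These values sum coding and non-coding transcripts. A non-coding transcript held 556, 463 and 160 counts in 1× glucose and 844, 729 and 907 with 2-DG. The counts of the coding transcript overlapped between the 2 groups, and Glb1 did not pass when only the most abundant transcript was counted. Glb1 shares 165 exonic bases with Tmppe on the same strand, and Tmppe itself was at a log2 fold change of 0.00 and a mean of 15.6 CPM.

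Ctsz, a carboxypeptidase of the cathepsin family, was at 28.1, 25.4 and 25.6 CPM in 1× glucose and at 47.3, 36 and 34.5 CPM with 2-DG, again with the highest value in passage 13 (log2 fold change 0.57 ± 0.12 SE, adjusted p = 0.00912 by edgeR). Ctsd, the main aspartic protease of the lysosome (chr7:142375910-142387827), was at 130, 120 and 125 CPM in 1× glucose and at 184, 165 and 168 CPM with 2-DG. Its exons share 808 bases on the same strand with the predicted gene Gm49369, to which no counts could be matched. The groups did not overlap and the log2 fold change of 0.47 ± 0.06 (SE) had the lowest adjusted p among the members, 0.000557 by edgeR. Hexa, the α subunit of β-hexosaminidase, was at 28.4, 26.6 and 28.4 CPM in 1× glucose and at 41.8, 34.2 and 35.7 CPM with 2-DG (log2 fold change 0.42 ± 0.08 SE, adjusted p = 0.00752 by edgeR). Part of its counts came from a predicted non-coding transcript, at 257, 0 and 484 counts in 1× glucose and 559, 140 and 489 with 2-DG.

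Ctsa, a carboxypeptidase that also protects Neu1 and Glb1 in a complex, was at 58.8, 65.1 and 66.6 CPM in 1× glucose and at 79.8, 76.5 and 77.2 CPM with 2-DG. The groups did not overlap, with a log2 fold change of 0.29 ± 0.09 (SE; adjusted p = 0.04 by edgeR). The call was lost when any library of either group was left out, with adjusted p of 0.0538 (without the 1× glucose library of passage 16) to 0.117 (without that of passage 13) by edgeR. Ctsa shares 495 exonic bases with Pltp and 324 with Neurl2 on the opposite strand, and both lay at positive log2 fold changes that did not pass, 0.80 and 0.61.

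Psap was at 126, 146 and 160 CPM in 1× glucose and at 178, 188 and 189 CPM with 2-DG. The groups did not overlap, but the spread within 1× glucose was wide, and the log2 fold change of 0.36 ± 0.11 (SE) did not pass in the main test (adjusted p = 0.0518 by edgeR). It passed with the block (0.000255), without the 1× glucose library of passage 16 (0.0412) and by DESeq2 without a block (0.0183). Ctsl, which shares exonic bases with the predicted genes Gm49230 on the same strand and Gm47123 on the opposite strand, was at 211, 243 and 225 CPM in 1× glucose and at 253, 249 and 245 CPM with 2-DG, and passed with the block but not in the main test or by DESeq2 (log2 fold change 0.14, adjusted p = 0.0439 by edgeR). Ctsb, a cysteine protease, and Gla, the α-galactosidase, did not pass in either fit. Their log2 fold changes were 0.09 (95% confidence interval -0.06 to 0.25) and 0.02 (-0.18 to 0.23). Ctsb shares 774 exonic bases with Fdft1, an enzyme of sterol synthesis on the opposite strand, which was at 143 CPM on average and rose (log2 fold change 0.36, adjusted p = 0.000895 by edgeR).

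Among the membrane genes, both major glycoproteins rose. Lamp1 (chr8:13159161-13175338) was at 325, 344 and 366 CPM in 1× glucose and at 414, 408 and 449 CPM with 2-DG. All 2-DG libraries lay above all 1× libraries, and the log2 fold change was 0.30 ± 0.07 (SE; adjusted p = 0.0203 by edgeR). The call was lost without the 1× glucose library of passage 13 (adjusted p = 0.0658 by edgeR), that of passage 15 (0.0672) or the 2-DG library of passage 16 (0.0681). Lamp2, which also has a role in autophagosome fusion, was at 149, 156 and 156 CPM in 1× glucose and at 189, 170 and 182 CPM with 2-DG (log2 fold change 0.23 ± 0.05 SE, adjusted p = 0.0076 by edgeR).

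Npc1 moves cholesterol out through the lysosomal membrane, receiving it from the soluble carrier Npc2. Npc1 was at 50.1, 66.5 and 73 CPM in 1× glucose and at 81.2, 96.4 and 89 CPM with 2-DG. It was higher within every passage, by a log2 ratio of 0.29 to 0.70, and passed with the block (log2 fold change 0.50 ± 0.06 SE, adjusted p = 0.00013 by edgeR) but not in the main test (0.0545). Without a block it passed by DESeq2 (0.017), and by edgeR when the 1× glucose library of passage 16 was left out (0.0417). Npc2 was at 229, 222 and 205 CPM in 1× glucose and at 231, 219 and 221 CPM with 2-DG, overlapping groups with a log2 fold change of 0.03 (95% confidence interval -0.07 to 0.13). Mcoln1, the calcium channel TRPML1, was at 28.6, 33.9 and 37.3 CPM in 1× glucose and at 40.5, 42.6 and 44.1 CPM with 2-DG. Like Npc1 it did not overlap between the groups and passed with the block (log2 fold change 0.36 ± 0.05 SE, adjusted p = 0.000363 by edgeR) but not in the main test (0.0659). Without a block it passed by DESeq2 (0.0338), and by edgeR when the 1× glucose library of passage 16 was left out (0.0449).

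Of the 4 proton pump genes, Atp6v0d1 and Atp6ap1 rose and 0 fell, against 9.12% and 8.51% of all genes. Atp6v0d1, a subunit of the membrane sector that couples it to the ATPase sector (chr8:105524461-105566064), was at 61.3, 65.4 and 70.7 CPM in 1× glucose and at 101, 95.6 and 95.4 CPM with 2-DG. The values of the 2 groups lay far apart, and the log2 fold change was 0.56 ± 0.07 (SE; adjusted p = 0.000738 by edgeR). Atp6ap1, an accessory protein needed for pump assembly, was at 79.3, 94.4 and 84 CPM in 1× glucose and at 114, 112 and 108 CPM with 2-DG (log2 fold change 0.38 ± 0.09 SE, adjusted p = 0.0158 by edgeR). Atp6v1a, the catalytic subunit, was at 149, 157 and 148 CPM in 1× glucose and at 174, 165 and 159 CPM with 2-DG. Its groups did not overlap, yet it did not pass in the main test (log2 fold change 0.13, adjusted p = 0.0536 by edgeR). It passed with the block (0.0108), without the 2-DG library of passage 16 (0.0347) and by DESeq2 without a block (0.015). Atp6v1h was at a log2 fold change of 0.00 (95% confidence interval -0.13 to 0.13).

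The Atg8 family moved in both directions. Gabarapl1 (chr6:129533192-129542331) was at 55.2, 50.8 and 52.5 CPM in 1× glucose and at 32.9, 33.6 and 38.3 CPM with 2-DG. Every 2-DG library lay below every 1× library, and the log2 fold change was -0.60 ± 0.07 (SE; adjusted p = 0.00071 by edgeR). Map1lc3a, which encodes LC3A (chr2:155276364-155278073), was at 23.4, 24.5 and 24.8 CPM in 1× glucose and at 17.6, 16.2 and 17.4 CPM with 2-DG.

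Map1lc3a thus also fell without overlap (log2 fold change -0.51 ± 0.06 SE, adjusted p = 0.000763 by edgeR). Gabarapl2, the third that fell, was at 39.9, 38.6 and 34.9 CPM in 1× glucose and at 32.1, 30.2 and 30 CPM with 2-DG (log2 fold change -0.30 ± 0.07 SE, adjusted p = 0.0148 by edgeR). Its call was lost without the 1× glucose library of passage 15 (adjusted p = 0.0504 by edgeR), the 2-DG library of passage 15 (0.0536) or that of passage 16 (0.0521).

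In the other direction, Gabarap rose from 101, 107 and 97.2 CPM in 1× glucose to 127, 120 and 114 CPM with 2-DG (log2 fold change 0.25 ± 0.05 SE, adjusted p = 0.00767 by edgeR). Map1lc3b, which encodes LC3B, was at 83.3, 96.1 and 94.9 CPM in 1× glucose and at 94.5, 98.8 and 100 CPM with 2-DG. These groups overlapped, and the gene passed with the block but not in the main test or by DESeq2 (log2 fold change 0.10, adjusted p = 0.0285 by edgeR). Sqstm1, the cargo receptor p62 that binds ubiquitin and Atg8 proteins, was at 83.4, 84.5 and 86.4 CPM in 1× glucose and at 98.5, 100 and 98.3 CPM with 2-DG. The rise was small and even across passages (log2 fold change 0.22 ± 0.04 SE, adjusted p = 0.0051 by edgeR). Sqstm1 shares 580 exonic bases with Mrnip on the opposite strand, which fell (log2 fold change -0.53, adjusted p = 0.0414 by edgeR).

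**Figure D3:**
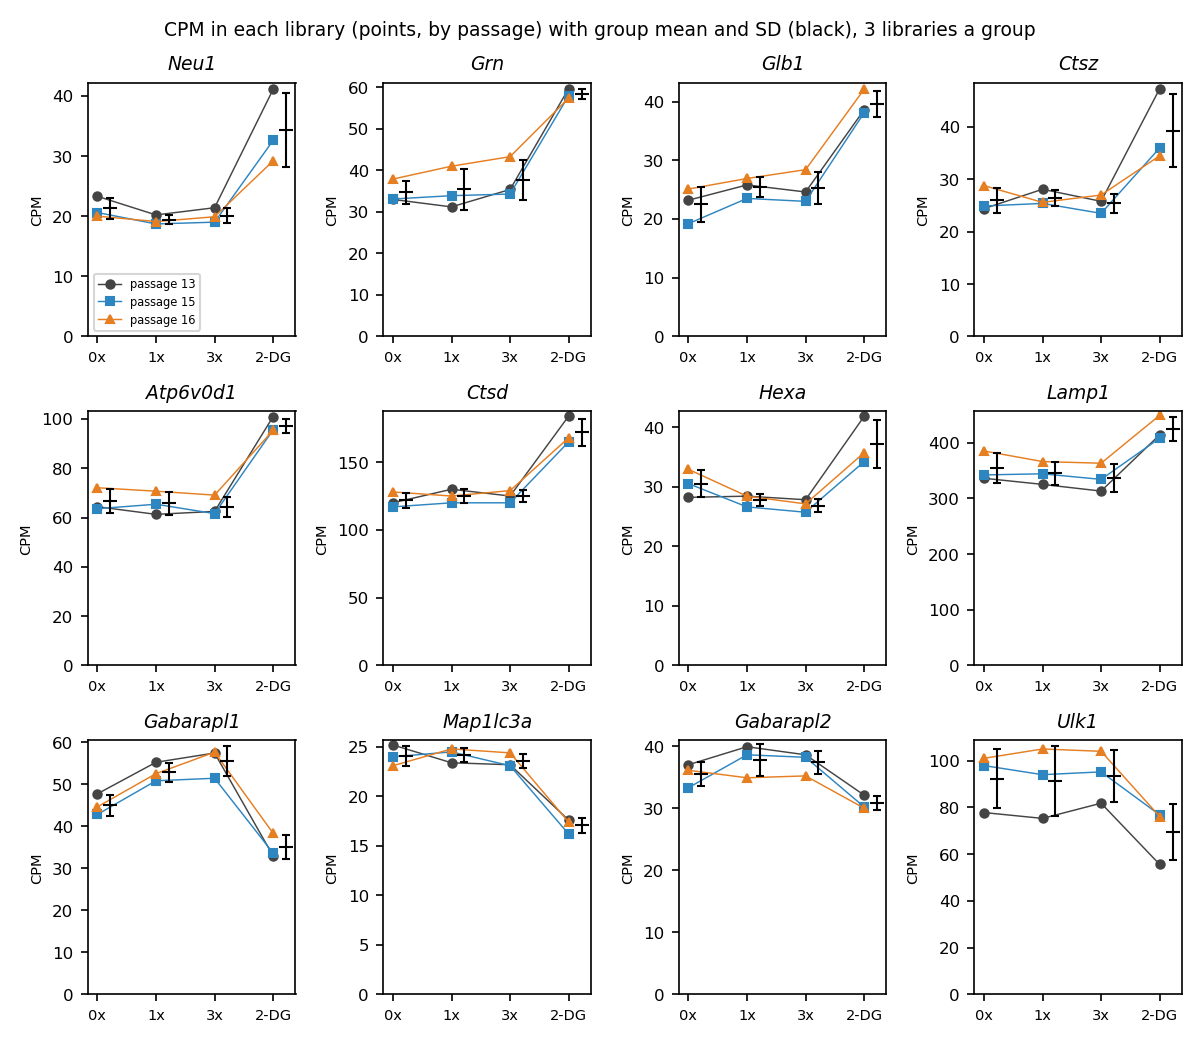
CPM of 12 members in each library (points joined by passage; the joining lines only mark libraries of 1 passage), with the group mean and SD in black (3 libraries a group), for 0×, 1× and 3× glucose and 2-DG. The 2-DG points of the first 8 genes lie above those of the other groups and those of Gabarapl1, Map1lc3a and Gabarapl2 lie below, while Ulk1 shows the passage 13 line below the others in every treatment.

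Of the 8 genes that start and extend the autophagosome, 1 rose and 0 fell in the main test, against 9.12% and 8.51% of all genes. Atg13, a partner of the Ulk1 kinase, was at 38.4, 40.1 and 40.9 CPM in 1× glucose and at 48.4, 48.5 and 42.7 CPM with 2-DG. Its log2 fold change was 0.23 ± 0.06 (SE; adjusted p = 0.0353 by edgeR), and the call was lost when any library of either group except the 2-DG library of passage 16 was left out (adjusted p = 0.0557 without the 1× glucose library of passage 16 to 0.119 without the 2-DG library of passage 15, by edgeR). Ulk1, the kinase itself, was at 75.3, 94 and 105 CPM in 1× glucose and at 55.6, 76.8 and 76.1 CPM with 2-DG.

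For Ulk1 the groups overlapped and the passage 13 library was the lowest in both, and within each passage it was lower with 2-DG, by a log2 ratio of -0.46 to -0.29. It passed with the block (log2 fold change -0.39 ± 0.04 SE, adjusted p = 6.45e-05 by edgeR) and not in the main test (0.118) or by DESeq2 (0.0699). Ulk2, Wipi1, Wipi2, Becn1, Atg5 and Atg7 passed in neither fit, with log2 fold changes of -0.12 (Wipi1) to 0.13 (Ulk2). The 95% confidence interval was -0.08 to 0.15 for Becn1 and -0.17 to 0.08 for Atg5. Becn1 shares 3104 exonic bases with Cntd1 on the opposite strand, which was at 1.11 CPM.

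The transcription factors did not pass in either fit. Tfe3 was at 43.5, 44.9 and 50 CPM in 1× glucose and at 46.8, 51.8 and 49.9 CPM with 2-DG (log2 fold change 0.10, 95% confidence interval -0.06 to 0.26). For Mitf the log2 fold change was -0.24 (-0.78 to 0.31). Tfeb was too rare for a firm statement, with a log2 fold change of 0.44 and an interval of -0.30 to 1.18.

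The ratio of 2-DG to 1× glucose also varied in size between passages, each with 1 library per treatment. Among the 17 members called, the log2 ratio of 2-DG to 1× glucose was largest in size in passage 13 for 13 (76.5%) and in passage 15 for 4, and in passage 16 for 0. Over all genes called, passage 13 was the largest for 47%, passage 15 for 38% and passage 16 for 15.1%. For the 20 lysosomal genes the median log2 ratio was 0.50 in passage 13, 0.29 in passage 15 and 0.26 in passage 16. The difference between passages in the response was not tested.

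**Figure D4:**
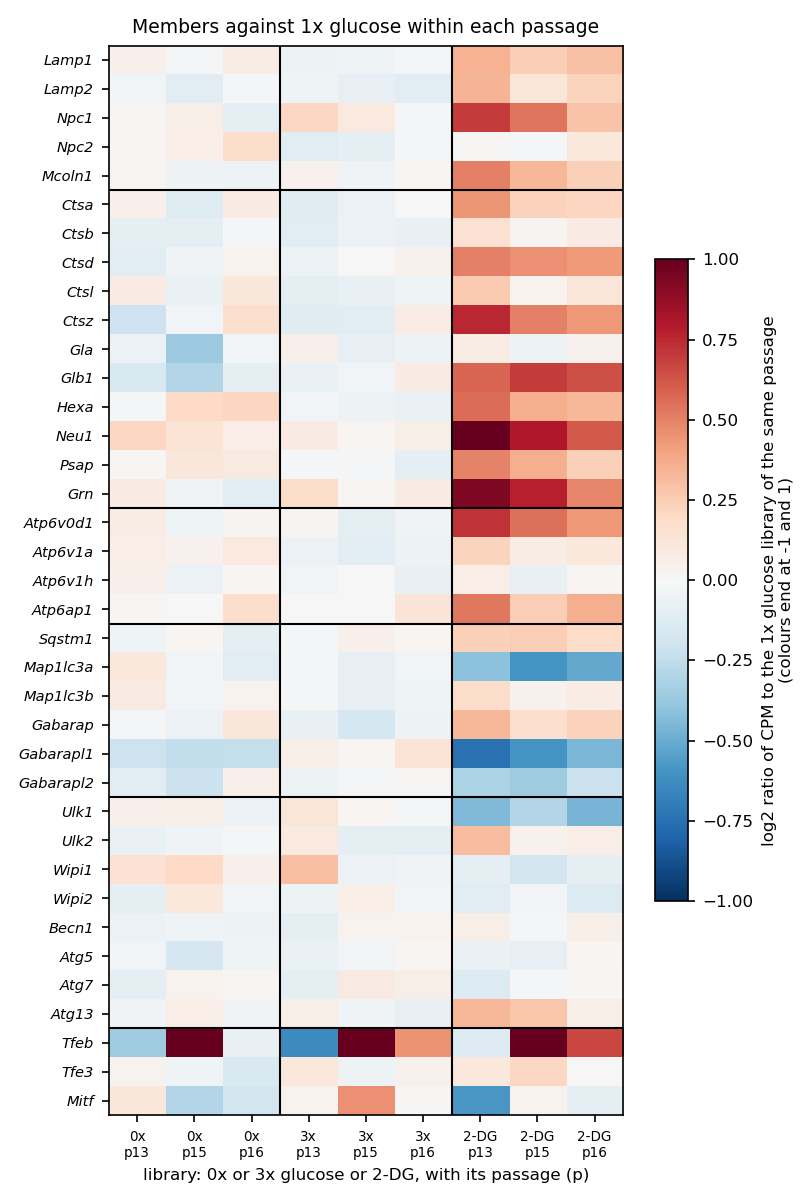
Log2 ratio of CPM to the 1× glucose library of the same passage for the 37 members (rows, grouped by role) in the 0× glucose, 3× glucose and 2-DG libraries (columns, with the passage; colours end at -1 and 1). The 3 columns of 2-DG are red for most lysosomal genes, with Neu1 at 0.61 to 1.02, and blue for Map1lc3a, Gabarapl1, Gabarapl2 and Ulk1, whereas the columns of 0× and 3× glucose are paler for most genes other than the rare Tfeb and Mitf.

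A change of glucose alone was the next comparison. In 0× against 1× glucose 0 members passed in either direction by edgeR (1 at an unadjusted p under 0.05, and 0 by DESeq2), and over all genes 0% rose and 0.0118% fell. With the block again 0 members passed, against 0% of all genes higher and 0.0177% lower. The median log2 fold change of the members was -0.01, and the values ran from -0.23 to 0.14. The lowest was that of Gabarapl1, at 47.7, 42.8 and 44.6 CPM in 0× glucose, below each of the 1× libraries (log2 fold change -0.23, 95% confidence interval -0.39 to -0.07, adjusted p = 1 by edgeR and 0.301 with the block).

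In 3× against 1× glucose 0 members passed by edgeR, 0 had an unadjusted p under 0.05, and 0 passed by DESeq2. Over all genes 0% rose and 0% fell, and the same held with the block (0% and 0%). The median log2 fold change of the members was -0.02. The highest, 0.39, was that of Tfeb.

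Over the whole range, 3× against 0× glucose, 0 members passed in the main test (4 at an unadjusted p under 0.05, and 0 by DESeq2), against 0.0118% of all genes higher and 0% lower. With the block 1 member was higher, against 0.572% of all genes higher and 0.23% lower. It was Gabarapl1, at 57.4, 51.4 and 57.6 CPM in 3× glucose, with a log2 fold change of 0.30 ± 0.06 (SE; adjusted p = 0.0412 by edgeR with the block and 0.809 without it). Next to it were Npc2, at 213, 209 and 203 CPM in 3× glucose and 232, 233 and 231 CPM in 0× glucose (log2 fold change -0.15, adjusted p = 0.0663 by edgeR with the block), and Atp6v1a (log2 fold change -0.14, adjusted p = 0.0942). For each of these genes the libraries of the 2 groups did not overlap, but neither gene passed.

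The test of 2-DG against 0× glucose asks whether the members differed between 2-DG and the removal of glucose. By edgeR 15 members were higher with 2-DG and 2 lower, against 9.86% and 9.04% of all genes. With the block 20 were higher and 4 lower, against 21.5% and 21.5% of all genes. This comparison shares its 2-DG libraries with the one against 1× glucose, so the values are given side by side. The log2 fold change against 0× and against 1× glucose was 0.69 and 0.83 for Neu1, 0.75 and 0.72 for Grn, 0.81 and 0.64 for Glb1, 0.50 and 0.47 for Ctsd, 0.54 and 0.56 for Atp6v0d1 and -0.50 and -0.51 for Map1lc3a.

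For 2 Atg8 genes the log2 fold change was smaller in size against 0× than against 1× glucose, a difference that was not tested. For Gabarapl1 the log2 fold change was -0.37 ± 0.07 (SE; adjusted p = 0.00725 by edgeR) against 0× and -0.60 against 1× glucose. Gabarapl2 (log2 fold change -0.20 against 0× and -0.30 against 1× glucose) was at 37, 33.3 and 36.1 CPM in 0× glucose and did not pass against it in the main test (adjusted p = 0.0619 by edgeR) but did by DESeq2 (0.0314), while with the block its log2 fold change was -0.21 ± 0.05 (SE; adjusted p = 0.00918 by edgeR). Mcoln1 passed against 0× glucose in the main test (log2 fold change 0.38 ± 0.12 SE, adjusted p = 0.0475 by edgeR), as did Lamp1 (0.26, adjusted p = 0.0331), Lamp2 (0.28, 0.00282), Ctsa (0.28, 0.0425), Ctsz (0.59, 0.00703) and Hexa (0.29, 0.038). The remaining members that passed in the main test were Atp6ap1 (0.32, adjusted p = 0.0312 by edgeR), Sqstm1 (0.26, 0.00198), Gabarap (0.23, 0.0102) and Atg13 (0.22, 0.0335), all higher with 2-DG. The block added Npc1 (0.51, adjusted p = 0.000119 by edgeR), Psap (0.29, 0.00101), Ctsb (0.16, 0.00593), Ulk2 (0.18, 0.0335) and Tfe3 (0.16, 0.0483), which were higher, and Ulk1 (-0.41, 4.4e-05), which was lower, in addition to Gabarapl2. For Tfe3 the sign turned when only the most abundant transcript was counted. Without the 0× library of passage 13, 11 members passed, while over all genes 1458 were higher with 2-DG and 1161 lower. Without the 2-DG library of passage 13 also 11 passed, while over all genes 1128 were higher and 1008 lower. In both fits Lamp1, Mcoln1, Ctsa, Hexa, Atp6ap1 and Atg13 were lost. Among these, Lamp1, Mcoln1 and Ctsa were also lost without the passage 15 library of either group or the 2-DG library of passage 16, Hexa without the 0× library of passage 15 or the 2-DG library of passage 16, Atp6ap1 and Atg13 without the 2-DG library of passage 15, and Atg13 without the 0× library of passage 16.

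Passages of the ES cells also differed. Fitted together with the treatments, 14 of the 37 members differed between passages 13, 15 and 16 (edgeR, F test), against 46.2% of all genes, and the share of the members, 14 of 37, was below that background. Of the 14, 10 were lowest and 3 were highest in passage 13. Ulk1 was at 55.6 to 81.8 CPM in the 4 libraries of passage 13, at 76.8 to 97.9 CPM in passage 15 and at 76.1 to 105 CPM in passage 16. It was lower in passage 13 in every treatment (adjusted p = 3.57e-05 by edgeR).

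The same order, with passage 13 lowest in all 4 treatments, held for Npc1 (50.1 to 81.2, 66.5 to 96.4 and 68.7 to 89 CPM in passages 13, 15 and 16; adjusted p = 0.000581 by edgeR), Psap (125 to 178, 144 to 188 and 150 to 189 CPM; 0.00137), Mcoln1 (28.6 to 40.5, 32.7 to 42.6 and 36.1 to 44.1 CPM; 0.00129) and Map1lc3b (82.6 to 94.5, 90.6 to 98.8 and 92.3 to 100 CPM; 0.00342). These 5 genes were also among the 7 that passed with 2-DG in the fit with the block and not in the main test. Lamp1 (adjusted p = 0.00143 by edgeR), Ctsb (0.00595), Glb1 (0.00615) and Ulk2 (0.0103) kept their call when any of the 12 libraries was left out. Neu1 (adjusted p = 0.027 by edgeR) lost it without the 0× or the 2-DG library of passage 13, and Atg7 (0.0125) without the 3× or the 2-DG library of passage 16. Grn (0.0305), Atp6ap1 (0.0444) and Mitf (0.0386) kept it in 3, 4 and 4 of the 12 fits with a library left out. Passage is the only batch the labels give.

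The rest of the pathways was examined in 140 further genes in 8 lists, all of which were tested. Like the members, these genes were chosen with earlier results of these data known. With 2-DG, 22 of 62 other lysosomal genes rose and 1 fell, against 9.12% and 8.51% of all genes. With the block 39 rose and 5 fell, against 21.1% and 20.2%. Among 32 further hydrolases 11 rose and 1 fell, with a median log2 fold change of 0.26 against 0.00 for all genes. Manba, the β-mannosidase, was at 2.68, 1.39 and 1.62 CPM in 1× glucose and at 5.04, 3.51 and 3.76 CPM with 2-DG. Its log2 fold change was 1.11 ± 0.29 (SE; adjusted p = 0.0237 by edgeR), and the call was lost without the 2-DG library of passage 13 (0.0838), or the 1× glucose library of passage 15 (0.0897) or 16 (0.0783).

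Arsb, a sulfatase of glycosaminoglycans, was at a log2 fold change of 0.73 ± 0.19 (SE; adjusted p = 0.0242 by edgeR), which was lost without the 1× glucose library of passage 13 (0.0712) or 15 (0.0673) or the 2-DG library of passage 13 (0.0767) or 16 (0.0525). The hydrolase that fell was Lgmn, an asparaginyl endopeptidase (log2 fold change -0.53), which is named after its value was seen; its call was lost without the 1× glucose library of passage 13 (adjusted p = 0.0521 by edgeR) or the 2-DG library of passage 15 (0.0688) or 16 (0.064). In the membrane list 6 of 16 rose and 0 fell by edgeR (median 0.22), against 9.12% and 8.51% of all genes. At an unadjusted p under 0.05 there were 12 of 16, and 1 was lower by DESeq2. The called genes with the largest log2 fold changes were Ostm1 (0.48, adjusted p = 0.00937 by edgeR), Cd63 (0.45, 0.000603) and Cln3 (0.44, 0.0067). Cd63, a tetraspanin of late endosomes, was at 77.2, 76.9 and 72.8 CPM in 1× glucose and at 111, 102 and 96.1 CPM with 2-DG. In the V-ATPase list 5 of 14 rose and 0 fell (median 0.17; edgeR, with 5 at an unadjusted p under 0.05, and 0 lower by DESeq2), led by Atp6ap2 (0.46, adjusted p = 0.000904), Atp6v0b (0.30, 0.00308) and Atp6v1b2 (0.27, 0.00234). Of 6 genes that tag or sort hydrolases by mannose 6-phosphate 1 rose and 0 fell, against 9.12% and 8.51% of all genes. The 1 that rose was Gnptg, a subunit of the tagging enzyme (log2 fold change 0.57 ± 0.12 SE, adjusted p = 0.0107 by edgeR).

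The 26 further genes of the autophagy machinery had a median log2 fold change of -0.05, with 2 higher and 4 lower, against 9.12% and 8.51% of all genes. Atg10, which joins Atg12 to Atg5, was at 4.74, 6.39 and 5.66 CPM in 1× glucose and at 2.02, 3.54 and 2.88 CPM with 2-DG (log2 fold change -0.99 ± 0.22 SE, adjusted p = 0.0124 by edgeR). Atg101, a partner of Atg13, fell (-0.36, adjusted p = 0.0105 by edgeR), and Uvrag, a partner of Becn1, rose (0.44, adjusted p = 0.00492). Of 14 selective autophagy receptors 0 passed (edgeR, with 2 at an unadjusted p under 0.05, and 1 lower by DESeq2), while with the block 5 were higher and 4 lower, against 21.1% and 20.2% of all genes.

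Among 25 genes of mTORC1 and its Rag anchor on the lysosome 6 rose and 1 fell, with a median of 0.07. Over all genes 9.12% rose and 8.51% fell. Flcn, which encodes folliculin, an activator of RagC and RagD, was at 43.9, 47.3 and 47.9 CPM in 1× glucose and at 78.8, 76.5 and 66.6 CPM with 2-DG (log2 fold change 0.67 ± 0.07 SE, adjusted p = 0.000284 by edgeR). Rragc, the gene of RagC, was at 45.3, 57.5 and 55.9 CPM in 1× glucose and at 69.4, 76.4 and 74.8 CPM with 2-DG (0.48 ± 0.11 SE, adjusted p = 0.0154 by edgeR, and 0.0542 without the 2-DG library of passage 15). Sesn2, a leucine sensor that restrains mTORC1 and is also a stress gene, rose by a log2 fold change of 0.42 ± 0.06 (SE; adjusted p = 0.00165 by edgeR). The gene that fell was Nprl3 (-0.40), named after its value was seen. Of 7 AMPK genes Prkaa2 rose (0.57, adjusted p = 0.0358 by edgeR) and Prkab1 (-0.22, 0.0386) and Stk11 (-0.19, 0.0313) fell, and these calls were fragile. Prkaa2 kept its call only without the 2-DG library of passage 13 or the 1× glucose library of passage 16, and Prkab1 and Stk11 only without the 1× glucose library of passage 13, with adjusted p of up to 0.13, 0.112 and 0.0904 by edgeR in the other fits that left out a library. In 0× and in 3× against 1× glucose 0 of the 140 genes passed by edgeR (1 at an unadjusted p under 0.05 in each, and 0 by DESeq2).

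**Figure D5:**
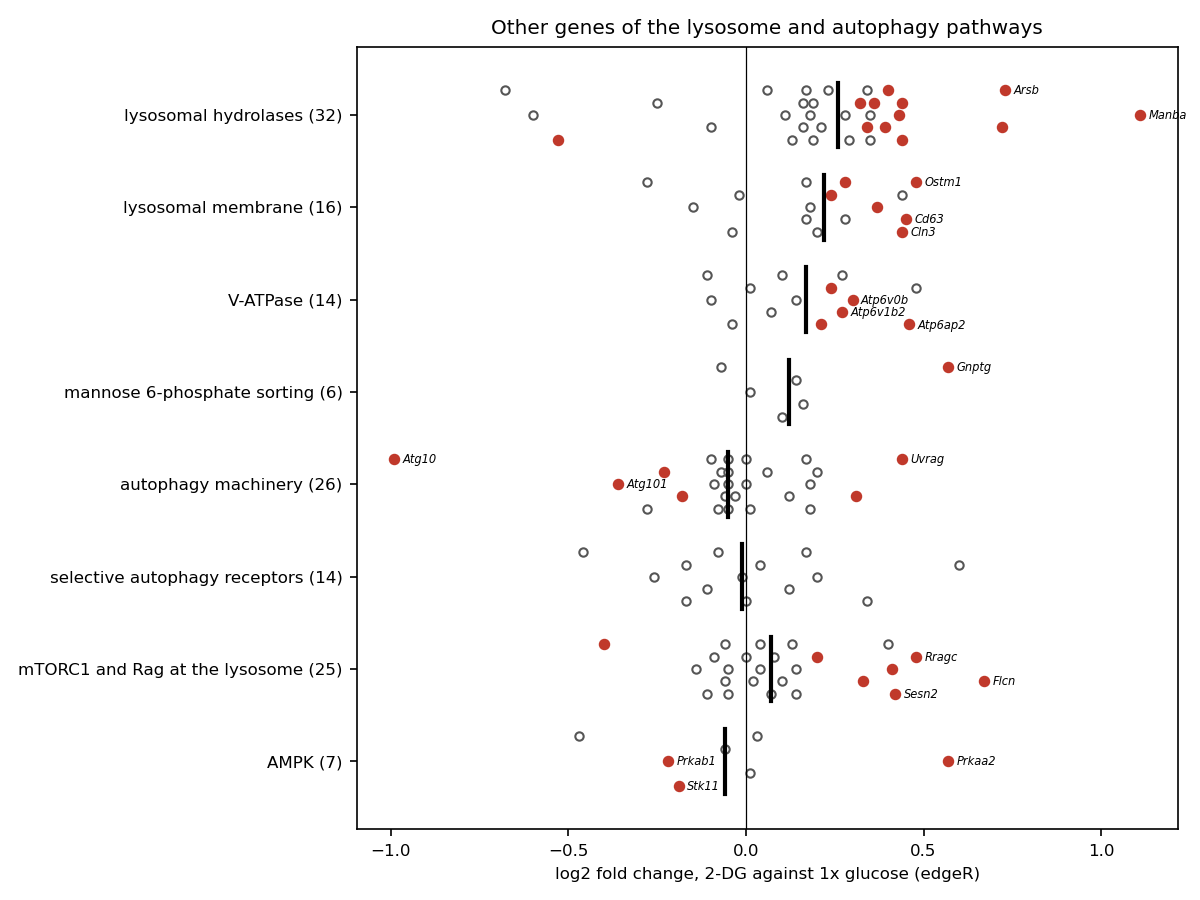
Log2 fold change with 2-DG against 1× glucose (edgeR) for 140 further genes in 8 lists (1 point a gene; filled red for an adjusted p under 0.05, open otherwise; black bars are list medians; the number tested stands beside each list). The medians lie at 0.26, 0.22 and 0.17 for the hydrolase, membrane and V-ATPase lists and at -0.05 for the autophagy machinery.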

How the data were processed

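PolyA RNA of 12 gastruloid libraries was sequenced, 3 in each of 4 treatments. The authors deposited 1 table of counts per library, whole numbers for 120312 RefSeq transcripts; per the submitters' notes and the study's methods, reads were trimmed (Trim Galore), aligned (HISAT2, mm10), freed of duplicates (Picard) and assigned to transcripts (StringTie), with versions and the strand setting not given in the sources used here. The library kit was directional, and 15 members share exonic bases with another annotated gene, 13 of them on the opposite strand. Since StringTie splits reads between transcripts, transcript counts were added up per gene with the RefSeq table of GRCm38.p6, which named 100% of the counts. The 3 deposited tables of the authors' own fold changes and p-values were not used.

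Genes were kept by filterByExpr and fitted with edgeR 4.0.16 in R 4.3.3 (TMM, quasi-likelihood, 4 groups together), with two-sided tests and an adjusted p threshold of 0.05. CPM use TMM-scaled library sizes, and standard errors come from the F statistic. The libraries held 31902471 to 45956080 counts. The labels give each replicate an ES cell passage, which pairs libraries across groups; deviations from group means correlated at 0.0963 to 0.623 in the 18 same-passage pairs and at -0.44 to 0.191 in the other 36. The passage block was therefore fitted beside the main test. Whether same-numbered libraries came from separate cultures is not stated beyond the study's term biological replicate. Alternatives were DESeq2 1.42.0, median-of-ratios factors, no filter, only the 2 groups compared, the most abundant transcript, and leaving out libraries. Levels per kb use GENCODE vM21 transcript lengths. The fits were tested on simulated data.

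All 37 members are accounted for, with full statistics for those called. Of each of the 8 further lists the 3 called genes with the largest absolute log2 fold change are named, except for 1 gene that is not reported here. The members and lists were chosen with earlier results of these data known.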

Additional observations from a re-analysis of the deposited data

How the results depend on the processing

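With 2-DG against 1× glucose, the count of 17 members called became 9 when only the most abundant transcript of each gene was counted, 1 of which (Wipi2) was not among the 17. The count became 0 without passage 15 and 7 without passage 16 where no block was fitted, and stayed within 1.5 times of 17 under every other alternative run, 13 to 18 when 1 library was left out and 24 with the passage block. Among the 24 members called in either fit, no log2 fold change turned its sign in this comparison. With 2-DG against 0× glucose, the 17 members called became 9 with the most abundant transcript, 11 to 16 with 1 library left out, 2 without passage 15 and 7 without passage 16 (no block), and 24 with the passage block; Tfe3 reversed to -0.11 with the most abundant transcript (adjusted p = 0.937 by edgeR). For 3× against 0× glucose, 0 members became 1 with the passage block, 1 with the block and median-of-ratios factors, and 2 with the block and without passage 13. No alternative called a member in 0× or 3× against 1× glucose. Between passages, the 14 members called became 3 with the most abundant transcript and 10 to 17 with 1 library left out. The causes of these changes were not tested. The fits without a passage, and the block with median-of-ratios factors, were added after the data were seen. Over all genes with 2-DG against 1× glucose, 1547 higher and 1443 lower became 3580 and 3421 with the passage block, 359 and 294 with the most abundant transcript, 1065 and 831 with only the 2 groups compared, 82 and 31 without passage 15 and 361 and 311 without passage 16 (no block). The depth limits Tfeb, with 11 to 35 counts a library.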
